A study of Rattus norvegicus with 16 samples.

Results

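The miR-34 family is represented on the rat miRNA arrays by 3 miRNAs, rno-miR-34a, rno-miR-34b and rno-miR-34c (below miR-34a, miR-34b and miR-34c), out of 350 measured, and they were taken by name, with the passenger (star) strands left out. MicroRNAs are short RNAs that guide a silencing complex to complementary sites in mRNAs and lower the output of those mRNAs. The arrays compared male Sprague-Dawley rats with contrast-induced acute kidney injury (CI-AKI) and saline-treated controls. All 24 rats, controls included, first went without water for 3 days and received furosemide, a loop diuretic, at 10 mg/kg. CI-AKI rats were then given the iodinated contrast medium Omnipaque (350 mg iodine per ml) at 10 ml/kg, controls the same volume of normal saline, and blood and kidney were taken after 8 h. RNA from 3 rats was combined into each pool, with 4 pools per treatment and tissue, each read on 1 array, 16 arrays in all. Groups were taken from the sample titles, which the treatment and tissue labels match. Of the 8 letter codes that the labels give to pools in each tissue, 6 stand for opposite treatments in plasma and kidney and 2 for the same, so which plasma and kidney pools share rats is not settled by these labels. The animals' age is not given in the sources used here, and since every group was dehydrated and given furosemide, no comparison includes an untreated rat.

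The miR-34 genes are among the best known transcriptional targets of p53, the transcription factor activated by DNA damage and other cell stress. Their products lower many cell cycle and survival mRNAs, and miR-34a has also been described to target Sirt1, a deacetylase that acts on p53 itself. miR-34a comes from a gene of its own and is expressed in many tissues, while miR-34b and miR-34c are cut from one primary transcript and are best known from multiciliated epithelium, brain and testis. Neither p53 nor any mRNA was measured here, so the p53 response of the family is background and was not tested.

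The mature sequences are shown because the members share the seed, the part that selects targets, and differ at some of the other bases. They are RefSeq's on the rat assembly GRCr8, and all 3 members matched, taking each array name without an arm as the 5p strand. Each is written 5′ to 3′, with the seed (bases 2 to 8) in capitals.
miR-34a: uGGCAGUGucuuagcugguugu
miR-34b: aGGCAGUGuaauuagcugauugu
miR-34c: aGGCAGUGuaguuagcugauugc
miR-449a: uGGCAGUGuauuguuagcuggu
miR-449c: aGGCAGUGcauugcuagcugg
The seed GGCAGUG occurred in 5 of the 693 mature rat miRNAs in the table: the 3 members, miR-449a and miR-449c, of which the array did not hold miR-449c. From base 1 at the 5′ end, miR-34b and miR-34c were identical at 21 of 23 bases, with the substitutions A11G and U23C from miR-34b to miR-34c. miR-34a shared 11 of the first 22 bases with each of them when aligned without gaps. All 3 members also hold the stretch uuagcug, which starts earlier in miR-34a. The ungapped count therefore understates how alike they are, and no alignment with gaps was made.

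The mature miR-34a lies on the plus strand at chr5:165815971-165815992, in a hairpin that overlaps the long non-coding RNA LOC103692514 between the protein-coding genes H6pd and Gpr157. miR-34b lies on the minus strand at chr8:60306657-60306679 and miR-34c at chr8:60306133-60306155. Their hairpins are separated by 441 bases, and both overlap the protein-coding gene Hoatz between Layn and Btg4. miR-449a and miR-449c lie together on chromosome 2 in the non-coding gene LOC134485839, beside Mcidas, a regulator of multiciliated cell fate.

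Each member was read by 2 probes on 20 spots per array. Kidney arrays detected 169 to 216 miRNAs. Plasma arrays detected 156 to 211, except for pool 4 of both treatments, with 84 in the control and 95 in the CI-AKI pool, so plasma values are given with and without those pools. The tubule list (miR-192, miR-194, miR-204, miR-30a and miR-30c) was detected in full on every kidney array. In plasma 3 to 5 of these 5 miRNAs were detected on each array, so the list does not separate the tissues by detection. The liver miRNA miR-122 was detected on 0 of 8 kidney arrays and on all 8 plasma arrays. All plasma arrays lay on 1 slide and all kidney arrays on another, with control pools in odd and CI-AKI pools in even columns, so tissue and slide, and treatment and column parity, cannot be told apart. Values below are background-corrected signals scaled between the arrays of a tissue, in arbitrary units. Signals of different miRNAs depend on their probes and were not ranked against each other. A miRNA is called detected where the scanner software flagged it so.

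In kidney, miR-34a and miR-34b were detected on all 8 arrays and no member's difference between CI-AKI and control pools passed its test. Across all 176 miRNAs tested in kidney, 3 passed the threshold of an adjusted p of 0.05 (1.70%), all higher in CI-AKI, and 0 of the 2 family members tested were among them. As these are bulk samples, fewer cells of a type and less RNA per cell cannot be told apart.

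miR-34a, the member with a gene of its own, read 85.7, 69.5, 81.8 and 74.1 in control kidney pools 1 to 4. In CI-AKI pools 1 to 4 it read 66.5, 59.3, 70.6 and 84.8. CI-AKI pools 1 and 2 lay below every control pool, pool 3 lay within the control range, and pool 4 lay close to the highest control, so the groups overlapped. The mean was 77.8 ± 7.33 (SD, n = 4) in controls and 70.3 ± 10.7 (SD, n = 4) in CI-AKI. The log2 difference, CI-AKI minus control, was -0.15 (SE 0.12, 95% interval -0.42 to 0.11, adjusted p = 0.917, limma with Benjamini-Hochberg adjustment), which ranked 35 of 176 by p. It stayed below 0 in all 23 alternative settings run for it. The call did not rest on 1 pool, although the size did: without CI-AKI pool 4 the difference was -0.25 (SE 0.10), with an unadjusted p of 0.0387 and an adjusted p of 0.489 in limma. Within the 2 slide rows, each with 2 pools per group, it was -0.30 and -0.01.

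miR-34b, from the shared miR-34b/c transcript, read 11.2, 11.4, 10.6 and 8.49 in control pools and 10.9, 10.1, 10.6 and 9.33 in CI-AKI pools. Pool 4 was the lowest of each group and the ranges overlapped almost fully. The log2 difference was -0.026 (SE 0.10, 95% interval -0.26 to 0.21, adjusted p = 0.957, limma). Its sign turned in 5 of 23 alternatives.

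miR-34c, from the same transcript, was detected in 3 of 4 pools of each kidney group, with pool 3 of both groups not detected, and so fell short of the filter for the fit across miRNAs. Its signals were 7.06, 7.23, 6.66 and 5.26 in control pools and 6.30, 6.44, 6.12 and 5.03 in CI-AKI pools. Each CI-AKI pool lay below the control pool of the same number, but the ranges overlapped because both groups had a low pool 4. The log2 difference of -0.13 gave p = 0.4 in a two-sided exact permutation test over 70 labellings, whose smallest possible p is 0.0286, and an adjusted p of 0.724 over the 4 member and tissue pairs tested this way. Its size depended on the scaling and on single pools. Under quantile normalization it was -0.38 (exact permutation p = 0.0286, adjusted p = 0.114), so even the smallest possible p did not pass. Without control pool 4 it was -0.23 (exact permutation p = 0.0571, adjusted p = 0.229), and without CI-AKI pool 4 it was -0.05 (exact permutation p = 0.771, adjusted p = 0.83).

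**Figure D1:**
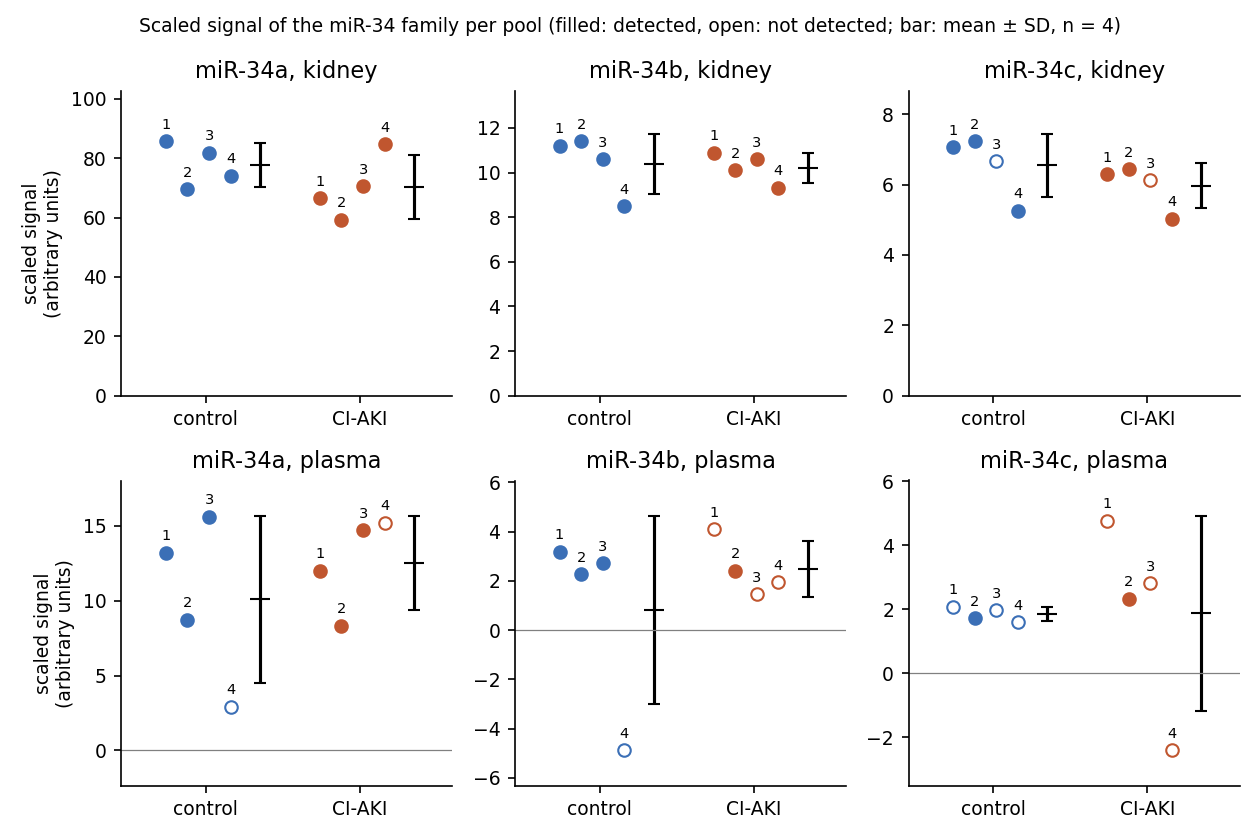
Scaled signal (arbitrary units, vertical axis, separate per panel) of the 3 members in each kidney (top) and plasma (bottom) pool, by treatment; numbers are pool numbers, filled points are detected, open points are not, and bars are mean ± SD over 4 pools. Kidney groups overlap for every member, with miR-34a between 59.3 and 85.7, and the widest spread in plasma comes with the undetected pools 4.

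The 2 probes of miR-34a gave similar kidney differences, -0.13 and -0.17 on the log2 scale. Those of miR-34c read -0.27 and -0.04, and those of miR-34b 0.08 and -0.09, opposite in sign. The differences between probes were not tested.

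In plasma, where extracellular miRNAs and those of residual blood cells are read together, miR-34a was detected in 3 of 4 pools of each group, miR-34b in 3 control and 1 CI-AKI pool, and miR-34c in 1 pool of each. None of them passed the detection filter, and 0.00% of the 96 plasma miRNAs tested by limma were called, with 5 (5.21%) at an unadjusted p under 0.05. By the exact permutation tests no member's difference passed the threshold. A single member at the smallest permutation p of 0.0286 would have had an adjusted p of 0.114 over the 4 pairs. These tests could thus hardly pass, and they say little on the absence of a difference.

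miR-34a read 13.2, 8.71 and 15.6 in control plasma pools 1 to 3 and 12.0, 8.31 and 14.7 in CI-AKI pools 1 to 3. Both series ran in the same order of pools, and each CI-AKI pool lay slightly below the control pool of the same number, by 0.07 to 0.13 on the log2 scale. In the undetected pool 4 the signal was 2.93 for control and 15.2 for CI-AKI, both below the lowest detected signals of those arrays, 20.9 and 18.4. With all 8 pools the log2 difference was 0.52 (exact permutation p = 0.543, adjusted p = 0.724). Without both pools 4 it was 0.16 (SE 0.35, adjusted p = 0.925, limma) when the scaling was recomputed and -0.10 (SE 0.37, adjusted p = 0.951, limma) when the scaling of all 8 arrays was kept. Its direction in plasma thus depended on the pools kept and on their scaling.

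miR-34b read 3.18, 2.27 and 2.72 in control pools 1 to 3, all detected, and -4.89 in pool 4, where the signal fell below background. In CI-AKI it read 2.41 in pool 2, where it was detected, and 4.09, 1.46 and 1.95 in pools 1, 3 and 4, where it was not. The log2 difference, after values below 0.976 were set to that floor, was 0.14 (exact permutation p = 0.83, adjusted p = 0.83). Its sign turned without both pools 4 on the scaling of all 8 arrays, at -0.15 (SE 0.39, adjusted p = 0.927, limma).

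miR-34c was detected only in pool 2 of each group, at 1.72 in control and 2.33 in CI-AKI. The undetected signals were 2.08, 1.96 and 1.59 in control pools 1, 3 and 4, and 4.76, 2.81 and -2.42 in CI-AKI pools. CI-AKI pools 1 to 3 lay above all 4 control pools and pool 4 below them. The log2 difference was 0.36 (exact permutation p = 0.514, adjusted p = 0.724). Without CI-AKI pool 4 it was 0.82, with an exact permutation p of 0.0286, the smallest that 35 labellings allow, and an adjusted p of 0.0857. Without both pools 4 it was 0.97 (exact permutation p = 0.1, the smallest that 20 labellings allow, adjusted p = 0.2). Since 6 of the 8 signals were not detected, these values describe signals near background.

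**Figure D2:**
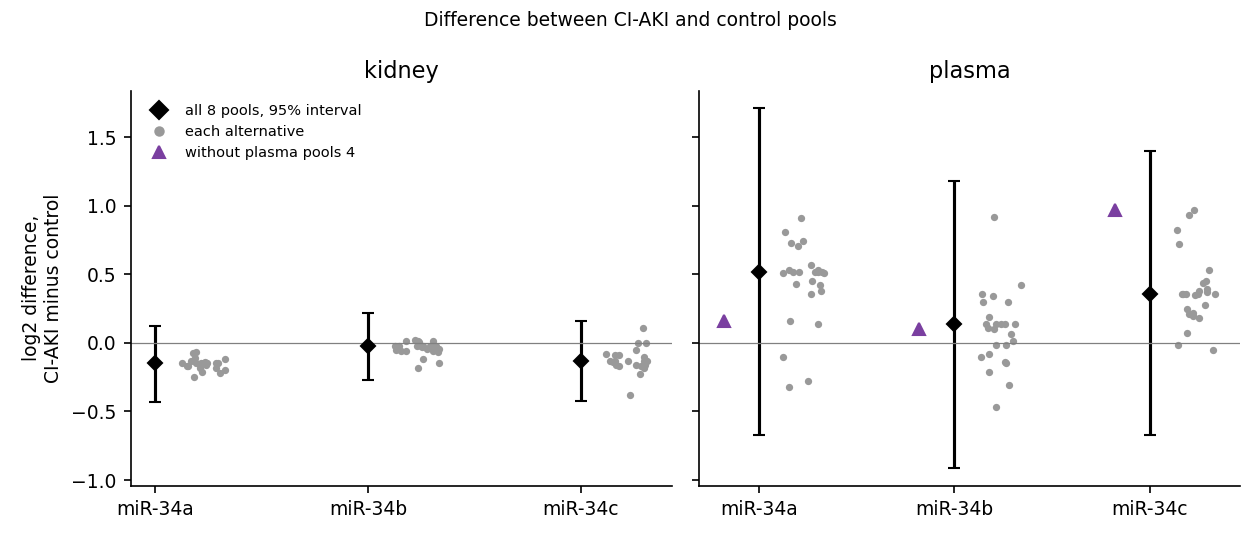
Log2 difference, CI-AKI minus control (vertical axis), of each member in kidney and plasma: diamonds with 95% intervals are from limma over miRNAs detected on at least 1 array with all 8 pools, grey points are the alternative settings, and triangles leave out both plasma pools 4. Kidney values lie near 0 with short intervals (miR-34a -0.43 to 0.12), while plasma intervals span 0 and are several times as wide (miR-34a -0.67 to 1.71).

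The treatment differences of both tissues were then set side by side. The kidney difference minus the plasma difference was -0.72 for miR-34a, -0.36 for miR-34b and -0.38 for miR-34c on the log2 scale. No member passed the detection filter in both tissues. When miRNAs detected on at least 1 array of each tissue were fitted, the miR-34a value of -0.72 had an SE of 0.55 and an adjusted p of 0.995, and those of miR-34b and miR-34c also had an adjusted p of 0.995 (limma). Over the 87 miRNAs that passed the filter, 1 was called (1.15%). Without both plasma pools 4 the values were -0.28 for miR-34a (SE 0.34, adjusted p = 0.786, limma), -0.10 for miR-34b (SE 0.37, adjusted p = 0.944, limma) and -1.08 for miR-34c, with no test. Without control plasma pool 4 alone they were -0.39, -0.03 and -0.44, and without CI-AKI plasma pool 4 alone -0.63, -0.50 and -0.98. Without scaling, miR-34a turned to 0.11 and miR-34b to 0.41. The treatment effect on the family was not shown to differ between the tissues.

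Kidney and plasma levels of each member were compared on a common scaling of all 16 arrays. miR-34a read 33.5 to 40.3 in control kidney pools and 6.05 to 31.0 in control plasma pools. The 6.05 came from the undetected pool 4, and the detected plasma pools read 17.9 to 31.0. These control ranges did not overlap, but the share of all miRNAs without overlap between the tissues was not counted. In CI-AKI pools it read 28.7 to 39.4 in kidney and 18.6 to 31.5 in plasma, which overlapped. The kidney minus plasma log2 difference was 1.10 in controls (SE 0.48, adjusted p = 0.0652) and 0.38 in CI-AKI pools (SE 0.23, adjusted p = 0.16, limma). Between tissues 77.5% of the 178 miRNAs tested in controls and 74.6% of the 181 tested in CI-AKI pools were called, and miR-34a was not among them on this scaling.

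This tissue comparison turned on the scaling and on a single pool. Without control plasma pool 4, the miR-34a difference in controls was 0.73 (SE 0.19) and passed the threshold (adjusted p = 0.00653, limma); miR-34a was detected on all 3 plasma arrays that remained. Without control plasma pool 3 it was 1.38 (adjusted p = 0.0343, limma). The undetected control plasma pool 4 stayed in that fit, and miR-34a entered it through kidney, so that call supports no difference. In these 2 fits 176 of 203 and 142 of 178 miRNAs were called. The miR-34a difference also moved with the processing. It was 1.66 under median scaling, 2.13 under quantile normalization and -0.84 under normexp background correction, which added an offset of 50 to each signal. The median over all tested miRNAs moved with these choices, from -1.19 to 1.36 in controls. With all pools, miR-34a passed the detection filter through kidney, where it was detected in 4 of 4 pools of each treatment against 3 of 4 in plasma. Its place among the tested miRNAs is therefore a description and supports no difference: its kidney minus plasma value lay above the median of all tested miRNAs by 1.50 in controls and by 0.97 in CI-AKI pools.

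miR-34b read 4.29 to 5.50 in control kidney and -10.1 to 6.57 in control plasma, and 4.34 to 5.33 against 3.01 to 8.43 in CI-AKI pools. The ranges overlapped in both, and the kidney minus plasma differences were 0.38 (SE 0.48, adjusted p = 0.492) and 0.017 (SE 0.31, adjusted p = 0.969, limma). Without control plasma pool 4 the difference in controls was 0.00138 (SE 0.14, adjusted p = 0.992, limma). With all pools, miR-34b passed the detection filter through kidney, where it was detected in 4 of 4 pools of each treatment. In plasma it was detected in 3 of 4 control and 1 of 4 CI-AKI pools. miR-34c, which was outside the filter, differed by -0.25 in controls and -0.63 in CI-AKI pools. In the fit over miRNAs detected on at least 1 array, these had adjusted p-values of 0.142 and 0.323 (limma). The control value turned to 1.17 with quantile normalization, 0.87 without scaling and 0.74 on the authors' deposited values, and the CI-AKI value to 0.59, 0.52 and 0.57. Without CI-AKI plasma pool 4 the latter was -1.22, and without CI-AKI plasma pool 1 it was -0.20.

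**Figure D3:**
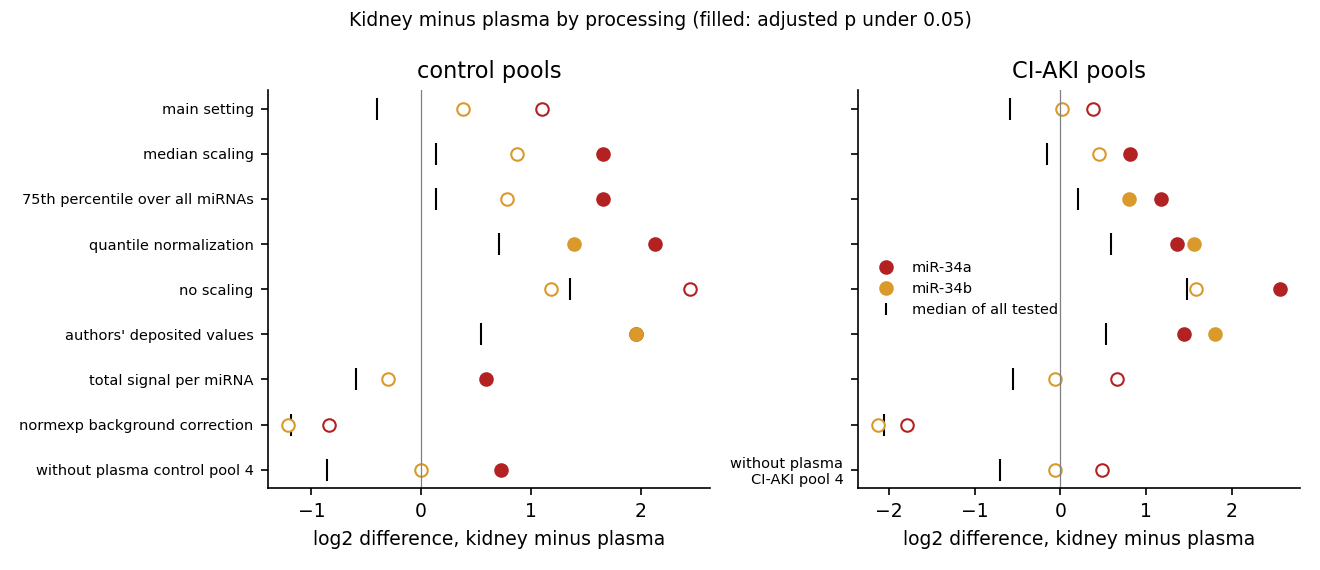
Kidney minus plasma log2 difference (horizontal axis) of miR-34a and miR-34b in control and CI-AKI pools under the main and alternative settings (vertical axis); filled points passed the adjusted p threshold and the black tick is the median of all tested miRNAs. miR-34a runs from -0.84 to 2.45 in controls, and the tick moves with the setting.

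The members were also compared with each other over the 8 kidney arrays. miR-34b and miR-34c, which share a transcript, followed each other closely: Pearson's r of their log2 signals was 0.89 and Spearman's rho 0.86 over 8 arrays, and r was 0.93 after the group means were removed. The arrays share the scaling and the RNA pools, so this is a description. Both were lowest in pool 4 of each group, and without the 2 arrays farthest from the median r was 0.72. Across 163 miRNAs, miR-34c ranked 1 by its correlation with miR-34b; miR-34c was not detected on all 8 arrays, and this pair was chosen after its values were seen. The rank was 2 on the authors' deposited values (r = 0.81), 7 after quantile normalization (r = 0.49) and 27 when only the brightest probe of each was read (r = 0.55). It was 13 with normexp, although r was 0.99 there. The offset of 50 in that setting exceeds the miR-34b signals before scaling, at most 13.8 in kidney. The probe sequences were not used here, and how far the probes of each miRNA also read the other was not tested.

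On the main scaling, miR-34a showed no such likeness to the pair. Its r with miR-34b was -0.07 and with miR-34c -0.18 over the same 8 arrays. This depended on the processing: they were 0.78 and 0.72 without scaling and 0.80 and 0.78 with normexp. In those settings most miRNAs ran together, with a median r to miR-34b of 0.91 and 0.80, against 0.22 on the main scaling. The ratio of miR-34b to miR-34c had a coefficient of variation of 6.33% over the arrays, against 16.5% for miR-34b to miR-34a and 19.2% for miR-34c to miR-34a. The single miRNAs varied by 9.61% to 12.7%. CI-AKI pool 4 shows the split most plainly, with the second highest miR-34a signal of the 8 arrays and the lowest miR-34c signal.

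**Figure D4:**
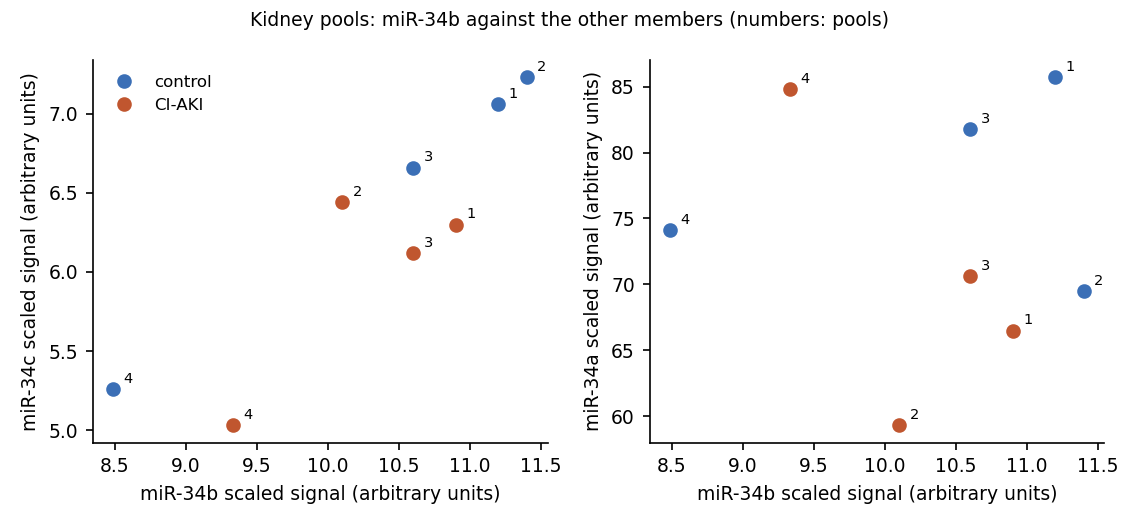
Scaled signals (arbitrary units) of miR-34b (horizontal axes) against miR-34c (left) and miR-34a (right) in the 8 kidney pools, coloured by treatment and numbered by pool. The pools line up for miR-34b and miR-34c (r = 0.89) and scatter for miR-34b and miR-34a (r = -0.07).

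Among the 162 other miRNAs detected on all kidney arrays, those most like miR-34a over the 8 arrays were miR-143 (r = 0.79, rho = 0.81), miR-146a (r = 0.78, rho = 0.74) and miR-203 (r = 0.73, rho = 0.69). Those most like miR-34b were miR-130a (r = 0.84, rho = 0.57), miR-347 (r = 0.82, rho = 0.76) and miR-17-3p (r = 0.80, rho = 0.62). These are the highest values of many correlations over few arrays.

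Outside the members, the array held 1 other miRNA with this seed, miR-449a, and 1 of the 3 passenger strands, miR-34c*. miR-449a was detected on 0 of 16 arrays, with kidney signals from -1.72 to 0.86. The passenger strand miR-34c* was detected on 0 of 8 kidney arrays and, in plasma, in control pools 1 to 3 at 4.58, 1.54 and 1.94 and in 0 of 4 CI-AKI pools. In control plasma it was thus detected in more pools than miR-34c, which was detected in 1. In control pool 4 it read 27.4 without being detected. Its undetected signals in CI-AKI plasma pools 1 to 4 were 2.54, 0.555, 0.611 and 2.97, which overlapped the detected control signals.

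Of the other miRNAs tied to p53, none tested in kidney was called. The list of p53 targets holds 12 miRNAs, the family included; 10 were tested in kidney, of which 6 lay above and 4 below 0, 0 were called (limma) and 0 had an unadjusted p under 0.05, and their median log2 difference was 0.023. Over all 176 tested, 106 (60.2%) lay above 0, 11 had an unadjusted p under 0.05, and the median was 0.028. miR-107 differed by 0.034 (SE 0.07), miR-192, the abundant tubule miRNA, by -0.05 (SE 0.06), miR-22 by 0.10 (SE 0.08) and miR-200c by 0.15 (SE 0.09). miR-34a, at -0.15, had the lowest value of the 10. For the list whose maturation p53 promotes, miR-16 differed by -0.01, miR-143 by -0.04 and miR-145 by 0.10. Of the 6 miRNAs that act on p53 or its regulators, 4 lay above and 2 below 0, 0 were called, 0 had an unadjusted p under 0.05 and the median was 0.022. Among these, miR-125b-5p, which has been described to target the p53 mRNA itself, differed by 0.03 (SE 0.07) and miR-29a by 0.07 (SE 0.07).

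In plasma 5 of the 12 targets were tested, 1 above and 4 below 0, with 0 called and a median of -0.38. Over all 96 tested, 39 (40.6%) lay above 0, 5 (5.21%) had an unadjusted p under 0.05 (limma), and the median was -0.09. miR-215 differed by -1.0 (SE 0.43, unadjusted p = 0.0435, adjusted p = 0.836, limma), the only one of the 5 targets at an unadjusted p under 0.05. miR-192 differed by -0.50 (SE 0.32), miR-143 by -0.38 (SE 0.45) and miR-22 by 0.19 (SE 0.39). Both tested miRNAs of the maturation list lay below 0, with a median of -0.28. Of the 6 p53 regulators, 4 lay above and 2 below 0, beside the 40.6% above 0 of all tested, and the median was 0.06. The liver miRNA miR-122 differed by -0.61 (SE 0.57, adjusted p = 0.941, limma) in the same plasma pools, and its part in the plasma values was not tested.

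**Figure D5:**
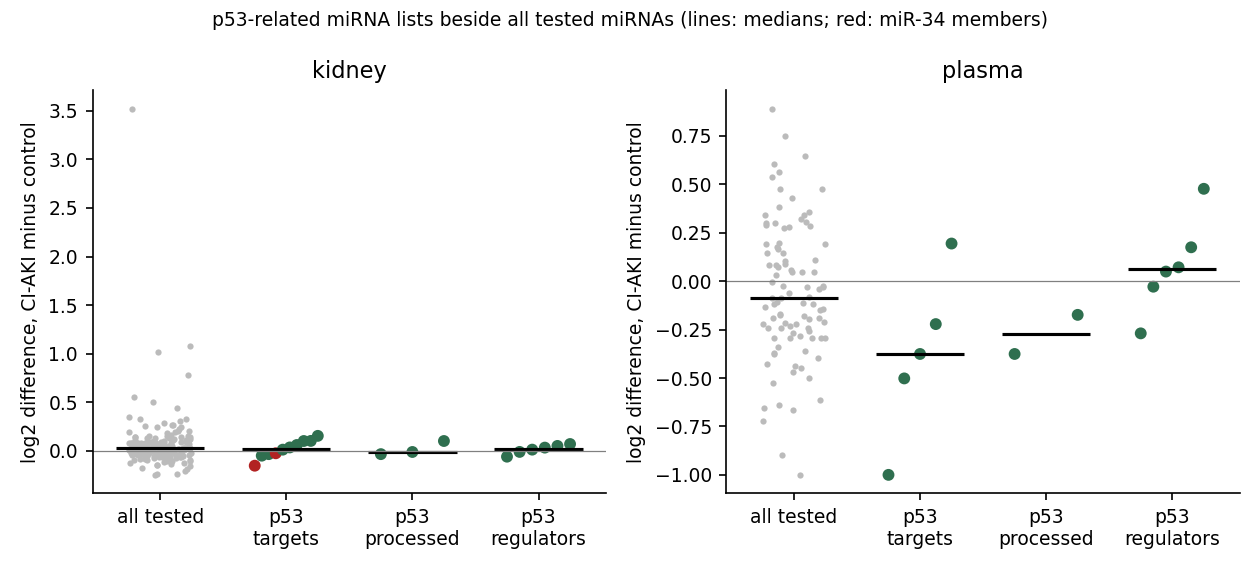
Log2 difference, CI-AKI minus control (vertical axis, separate per panel), of all tested miRNAs (grey) and of the 3 p53-related lists in kidney and plasma; black lines are medians and red points are miR-34 members. Kidney list medians (0.023, -0.013 and 0.022) lie beside the median of all tested miRNAs (0.028).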

How the data were processed

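Each of 16 one-colour Agilent arrays was read for 1 pool of RNA from 3 rats. Per the file headers, Agilent Feature Extraction 10.7.3.1 produced the spot intensity values, and the deposited background-corrected processed signal was used. Spots marked as outliers were dropped, the remaining spots gave a mean per probe, and the probes a mean per miRNA. For scaling, the 75th percentile of an array's signal was taken over miRNAs detected on every array (163 in kidney, 74 in plasma, 65 across both) and set equal between arrays. Values under a floor (1.79, 0.976 and 1.31) were set to it and log2 was taken, which understates changes of dim miRNAs. The authors' deposited log2 table served as an alternative.

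The tests took miRNAs that 1 or both of the compared groups detected in all 4 pools, and used limma 3.58.1 in R 4.3.3 (lmFit, eBayes, two-sided, Benjamini-Hochberg over all tested, threshold 0.05). Members outside the filter had two-sided exact permutation tests. Figures used matplotlib 3.10.9. Only the limma fit was tested on simulated data, without the scaling, floor, detection filter or permutation tests. The number of arrays limits the precision. The members and lists were chosen with earlier results of these data known. Named are the members, up to 4 miRNAs per p53 list, and the 3 miRNAs most correlated with a member. Of the marker lists, the members tested in kidney and plasma were 5 and 3 for tubule, 5 and 0 for epithelium, 2 and 2 for red blood cells, 4 and 4 for leukocytes, 3 and 3 for platelets, 0 and 1 for liver, 2 and 2 for endothelium, and 2 and 1 for multiciliated cells, brain and testis; 0 of those tested were called.

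Same-numbered plasma pools deviated together (r of 0.22, 0.49, 0.62 and 0.60 for numbers 1 to 4), so the numbers were taken to pair them in the alternatives with a block. Those of kidney did not all do so (0.20, 0.59, -0.10 and 0.15). The pairing comes from the data, since the titles give numbers only. Same-numbered pools of a tissue also lay in neighbouring columns of the same slide row. A link between their rats and a shared array position therefore cannot be told apart.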

Additional observations from a re-analysis of the deposited data

How the results depend on the processing

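The treatment differences of the members stayed on the same side of the threshold in all 136 alternatives with a test, and kept their sign in 116. In the permutation tests among these, a single member at the smallest possible p could not pass after adjustment. For those tests the unchanged call is no sign of a stable result. The differences of miR-34b in kidney turned to 0.00447 with the percentile over all miRNAs and 0.0111 with normexp, and ranged from -0.12 to 0.0204 as pools were left out. miR-34c in kidney turned to 0.11 with the total signal, was -0.38 with quantile normalization and ranged from -0.23 to -0.0489 as pools were left out. In plasma, miR-34a turned to -0.32 without scaling, -0.28 with the total signal and -0.10 without both pools 4 on the scaling of all arrays, an alternative added after seeing the data, and ranged from 0.14 to 0.81 as pools were left out. miR-34b in plasma turned to -0.21 with quantile normalization, -0.47 without scaling, -0.14 with the percentile over all miRNAs, -0.31 with the total signal, -0.014 with the brightest probe, -0.0172 with the deposited values and -0.15 without both pools 4 on the scaling of all arrays, and ranged from -0.10 to 0.42 as pools were left out. miR-34c in plasma turned to -0.0138 with the deposited values and ranged from -0.0545 to 0.82.

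Kidney minus plasma in controls, miR-34a passed the threshold under quantile normalization (2.13), median scaling (1.66), the percentile over all miRNAs (1.66), the total signal (0.59), the deposited values (1.96) and 1 fit of all groups (1.10), and turned to -0.84 with normexp. Leaving out pools gave 0.73 to 1.38. In the settings where it passed with all pools, 127 to 140 of the 178 miRNAs tested were called, so a call there was common. miR-34b passed with quantile normalization (1.39) and the deposited values (1.96), and turned with normexp (-1.21), the total signal (-0.30) and a floor 4 times as high (-0.0729); leaving out pools gave 0.00138 to 0.69. In CI-AKI pools, miR-34a passed with quantile normalization (1.36), no scaling (2.56), median scaling (0.81), the percentile over all miRNAs (1.17) and the deposited values (1.44), and turned with normexp (-1.79). In the settings where it passed, 82 to 137 of the 181 miRNAs tested were called. miR-34b passed with quantile normalization (1.56), the percentile over all miRNAs (0.80) and the deposited values (1.80), and turned with normexp (-2.13), the total signal (-0.0669) and the higher floor (-0.18); leaving out pools gave -0.21 to 0.28. The offset of 50 added with normexp exceeds every plasma signal of the members before scaling, at most 48.1 for miR-34a in control pool 3. Its part in the shifts with normexp was not tested, nor was the cause of the other shifts. With all pools, both members entered these tests through kidney, and miR-34b was detected in only 1 of 4 CI-AKI plasma pools. Their calls are therefore a description and support no difference.

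Of the counts of called miRNAs, that in kidney was 1 with quantile normalization, no scaling, the higher floor and 1 fit of all groups, and 0 with normexp or detection on every array. That of the difference between tissues in the treatment effect was 0 with quantile normalization, no scaling, normexp, detection on every array and the higher floor, 2 without both plasma pools 4, and 1 to 4 as pools were left out. Between tissues the counts were 57 and 82 without scaling, 72 and 69 with normexp and 56 and 70 with detection on every array, for control and CI-AKI pools. The split into higher and lower calls in controls, 59 and 79 by the main scaling, was 77 and 50 with quantile normalization.

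With the replicate number as a block, the count in kidney was 3, as without it, miR-34a differed by -0.15 (adjusted p = 0.915) and miR-34b had an adjusted p of 0.945 (limma). In plasma, where same-numbered pools deviated together, the block gave 0 called, with 10 at an unadjusted p under 0.05 against 5 without it. The members outside the filter were tested with the block over miRNAs detected on at least 1 array, an alternative added after seeing the data: adjusted p was 0.528 for miR-34c in kidney, and 0.892, 0.985 and 0.892 for miR-34a, miR-34b and miR-34c in plasma (limma). No member was called with the block in either treatment comparison. For the tissue comparisons, leaving out both plasma pools 4 is the same as leaving out that of the treatment compared. Signal near background limits miR-34b and miR-34c in plasma, and the weak pools 4 limit every plasma value.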
